A study of Rattus norvegicus with 12 samples.

Results

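Lcn2, Il6, Ccl2 and Cxcl1 are genes for secreted proteins of inflammation. They were taken from the count table by their rat Ensembl identifiers, ENSRNOG00000013973 (Lcn2), ENSRNOG00000010278 (Il6), ENSRNOG00000007159 (Ccl2) and ENSRNOG00000002802 (Cxcl1), and are 4 of its 32622 genes. All 4 passed the filter on low counts, which kept 13215 genes. Poly(A) RNA came from primary cultures of fibro-adipogenic progenitors of the rat soleus (Rattus norvegicus). These stromal cells lie between the muscle fibres and can become fat cells or fibroblasts. The donors were control rats without hindlimb suspension, rats suspended for 7 days and rats suspended for 14 days, so that the hind legs of the suspended animals bore no weight. Each treatment was sequenced before adipogenic induction (day 0) and after 3 days of it (day 3). This gives 6 groups, each of 2 libraries. All cultures were grown in DMEM with serum, and the medium of induction held 3-isobutyl-1-methylxanthine, dexamethasone and insulin besides. The labels give no strain, age or sex of the animals, and do not say whether replicates came from separate animals or dishes, so the p-values measure a spread that may be technical.

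Lipocalin 2, the product of Lcn2, is a secreted protein that binds bacterial siderophores and so withholds iron from bacteria. It is an acute phase protein and is also made by fat cells. Interleukin 6, the product of Il6, is a cytokine that signals through a receptor shared with related cytokines and is released by many stromal and immune cells. Ccl2 encodes a CC chemokine that draws monocytes, and Cxcl1 encodes a CXC chemokine that draws neutrophils. All 4 genes are textbook targets of NF-kappaB, the transcription factor that acts downstream of interleukin 1, tumour necrosis factor and Toll-like receptors. Dexamethasone, a component of the induction medium, is a glucocorticoid, a class of hormone known for lowering many inflammatory genes.

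The choice of genes was not blind to the data. Lcn2 had been picked out by its rise in the 14-day libraries of day 3 over the control libraries of day 3, so each value of Lcn2 that uses either of these groups is given as a description with no test. Which values led to the choice of Il6, Ccl2 and Cxcl1 is not recorded. Their tests run over all 13215 genes, but they are not independent evidence, since the genes were chosen with earlier results known. Except for these 4 genes, no identifier could be paired with a symbol: 0 of the 32622 matched the RefSeq table used. The receptors, chemokine relatives and NF-kappaB genes of the pathway were therefore not counted, and markers of progenitors, leukocytes or other cells were not checked.

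The promoters of the genes are shown because all 4 genes were higher at day 3 than at day 0. RefSeq's table for the rat build GRCr8 held a promoter for Lcn2, Il6 and Cxcl1. Each sequence runs 5′ to 3′ on the gene's strand, and positions count back from the start site that the table uses. The Il6 and Cxcl1 sequences are the 250 bases before that site, chr4:5894576-5894825 and chr14:17479322-17479571 on the minus strand. For Lcn2, 179 bases are shown, from position -250 to -72, at chr3:36081852-36082030 on the minus strand. The bases after position -72 lie within the gene's extent in RefSeq's gene table and are not shown. The positions in Lcn2 thus do not count from the outermost start of the gene. Capitals mark matches to 3 motifs on either strand, namely the kappaB consensus bound by NF-kappaB, TTGCNNAA (letters of the C/EBP site) and TGACGTCA (the cAMP response element).
Lcn2: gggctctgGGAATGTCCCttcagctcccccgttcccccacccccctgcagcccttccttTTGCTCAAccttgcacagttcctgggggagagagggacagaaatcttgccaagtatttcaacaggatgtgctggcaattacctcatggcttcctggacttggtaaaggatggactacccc
Il6: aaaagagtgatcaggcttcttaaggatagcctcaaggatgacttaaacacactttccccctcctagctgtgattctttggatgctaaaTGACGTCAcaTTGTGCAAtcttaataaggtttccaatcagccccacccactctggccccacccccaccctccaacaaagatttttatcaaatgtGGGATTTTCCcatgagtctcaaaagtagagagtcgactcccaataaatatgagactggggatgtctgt
Cxcl1: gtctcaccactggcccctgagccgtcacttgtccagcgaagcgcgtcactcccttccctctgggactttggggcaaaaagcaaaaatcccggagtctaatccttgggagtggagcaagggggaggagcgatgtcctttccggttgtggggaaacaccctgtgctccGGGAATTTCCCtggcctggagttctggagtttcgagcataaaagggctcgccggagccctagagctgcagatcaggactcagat

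The kappaB consensus stood in all 3 promoters. In Lcn2 it read GGAATGTCCC, from 242 to 233 bases before the start, in Il6 GGGATTTTCC from 68 to 59 bases before it, and in Cxcl1 GGGAATTTCC from 84 to 75 bases before it; a further match from 83 to 74 bases before it overlaps that one. Of all 33469 promoters of the table, 6.33% held this consensus within the same 250 bases. TTGCNNAA matched in Lcn2 (TTGCTCAA, 191 to 184 bases before the start) and in Il6 (TTGTGCAA on the other strand, 152 to 145 bases before it), against 9.22% of all promoters. TGACGTCA stood in Il6 alone of the 3, from 162 to 155 bases before the start, against 1.59% of all promoters. No marked matches of different motifs overlapped. The motifs were chosen after these promoters had been seen, and a match says only that the letters are there. In the same table Ccl2 is followed by Ccl7, Ccl11, Ccl12 and Ccl1, and Cxcl1 lies between Cxcl2 and Cxcl3, so both sit among related chemokine genes. The treatment of reads that match more than 1 of such relatives is not stated in the labels.

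Total counts ranged from 15105521 to 21484885 per library. Levels are given as CPM, the count scaled to a fixed library total, on libraries scaled by TMM, a method that aligns the bulk of the genes, and values after ± are SDs over the 2 libraries of a group. In bulk RNA, a lower level can mean fewer cells that express a gene or less RNA per cell, which cannot be told apart. Between 68.3% and 70.6% of the counts from 1 to 20 in a library were even numbers, so that many counts may stand for pairs of reads and the counting error is then larger. CPM is not corrected for gene length, so levels are compared between groups and not between genes. Groups of 2 libraries that do not overlap are common: in 14-day against control cells at day 3 this held for 65.9% of all genes, in either direction. The share for other pairs of groups is not given here. Where groups are said below not to overlap, this describes the levels and is no trait particular to these genes.

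Together the 4 genes took 0.0399% ± 0.000415 of all counts in control cells at day 0 and 0.0888% ± 0.000465 at day 3 (SD, n = 2). In 7-day cells these shares were 0.0525% ± 0.00292 and 0.118% ± 0.00466, and in 14-day cells 0.0396% ± 0.000941 and 0.0951% ± 0.00212 (SD, n = 2). The 7-day cells thus had the highest share at either day, in all 4 of their libraries. Ccl2 makes up the largest part of this share, but the changes of the share do not follow that gene alone. In replicate 1 of control cells at day 0 Ccl2 took 0.0365% of the 0.0396%, and Il6 took 0.00219%. In replicate 1 of control cells at day 3 Ccl2 took 0.0528% of 0.0892%, and Il6 took 0.0290%. In replicate 1 of 7-day cells at day 3 Ccl2 took 0.0627% of 0.122%.

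**Figure D1:**
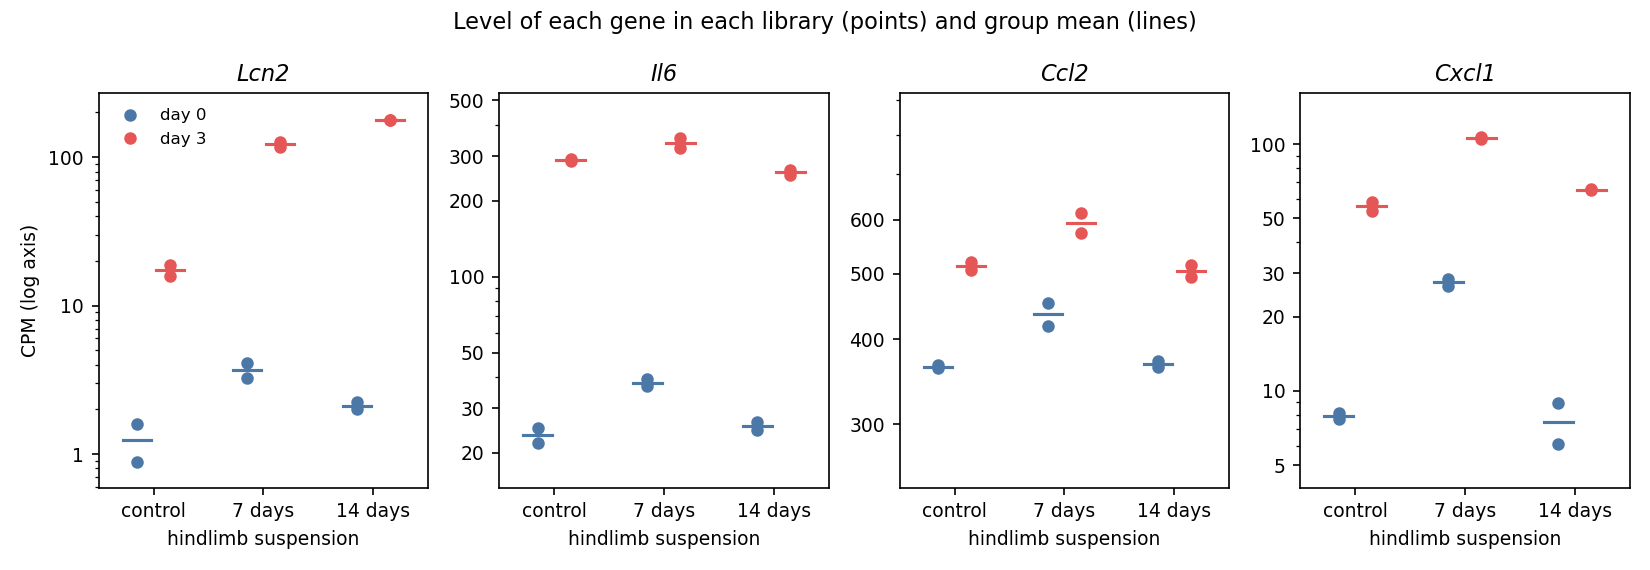
Level of each gene in CPM on a log axis whose range differs between panels, by days of hindlimb suspension. Points are the 12 libraries, 2 per group, and short lines are group means, with day 0 in blue and day 3 in red. In every panel the 3 red groups lie above their own blue groups, and the 7-day cells are the highest at either day except for Lcn2 at day 3, where the 14-day cells reach 178 CPM.

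The levels of Lcn2 covered the widest range. At day 0 control cells had 1.59 and 0.888 CPM of Lcn2 (replicates 1 and 2), from 30 and 16 counts. The 7-day cells had 4.12 and 3.23 CPM of it, and the 14-day cells 2.01 and 2.23 CPM. At day 0 the 3 groups thus did not overlap, with the control libraries lowest and the 7-day libraries highest, but each value rests on 16 to 68 counts.
At day 3 the order was different. Control cells had 18.9 and 15.7 CPM of Lcn2 at day 3, 7-day cells 117 and 126 CPM, and 14-day cells 178 and 179 CPM. The lowest unloaded library of day 3 stood far above the highest control library. In order of means the 6 groups ran control, 14-day and 7-day cells at day 0 (1.24 ± 0.497, 2.12 ± 0.156 and 3.68 ± 0.631 CPM), then control, 7-day and 14-day cells at day 3 (17.3 ± 2.22, 122 ± 6.60 and 178 ± 0.690 CPM; SD, n = 2).

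Il6 had 21.8 and 25.1 CPM in control cells at day 0, 36.8 and 39.2 CPM in 7-day cells, and 24.7 and 26.4 CPM in 14-day cells. The control and 14-day libraries overlapped, and the 7-day libraries lay above both. At day 3 Il6 had 287 and 293 CPM in control cells, 355 and 323 CPM in 7-day cells, and 254 and 266 CPM in 14-day cells. The 3 groups of day 3 did not overlap, with the 14-day cells lowest. Group means were 23.5 ± 2.36, 38.0 ± 1.70 and 25.6 ± 1.22 CPM at day 0 and 289.9 ± 4.79, 339 ± 22.7 and 259.9 ± 8.67 CPM at day 3 for control, 7-day and 14-day cells (SD, n = 2).

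Ccl2 changed least between groups. It had 363 and 366 CPM in control cells at day 0, 453 and 418 CPM in 7-day cells, and 365 and 372 CPM in 14-day cells. At day 3 it had 520.4 and 506 CPM in control cells, 614 and 574 CPM in 7-day cells, and 495 and 515 CPM in 14-day cells. At both days the control and 14-day libraries overlapped and the 7-day libraries lay above them. Group means were 365 ± 2.60, 436 ± 24.4 and 368 ± 4.85 CPM at day 0 and 513 ± 10.4, 594 ± 28.2 and 505 ± 14.5 CPM at day 3 for control, 7-day and 14-day cells (SD, n = 2). The lowest of them was 61.3% of the highest, where for Il6 it was 6.92%, for Cxcl1 7.06% and for Lcn2 0.695%.

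Cxcl1 had 8.17 and 7.71 CPM in control cells at day 0, 28.6 and 26.5 CPM in 7-day cells, and 6.07 and 8.90 CPM in 14-day cells. The 2 control libraries lay between the 2 libraries of 14-day cells, and the 7-day libraries lay far above all of them. At day 3 Cxcl1 had 53.7 and 58.5 CPM in control cells, 105 and 107 CPM in 7-day cells, and 66.0 and 64.9 CPM in 14-day cells. The groups of day 3 did not overlap, with the control cells lowest and the 7-day cells highest. Group means were 7.94 ± 0.321, 27.5 ± 1.43 and 7.49 ± 2.004 CPM at day 0 and 56.1 ± 3.35, 106 ± 1.37 and 65.5 ± 0.760 CPM at day 3 for control, 7-day and 14-day cells (SD, n = 2).

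The next comparison was the change over the induction, from day 0 to day 3. No group was kept to day 3 without the medium, so this change also holds the longer time in culture. Log2 changes, their standard errors (SE) and adjusted p-values come from the quasi-likelihood test of edgeR with Benjamini-Hochberg adjustment over all genes tested, at a threshold of 0.05. Il6, Ccl2 and Cxcl1 rose in all 3 treatments, and Lcn2 rose in 7-day cells, the treatment in which its change could be tested. That makes 3 of 3 members tested in control cells, where 25.8% of all genes rose, 4 of 4 in 7-day cells, where 24.8% rose, and 3 of 3 in 14-day cells, where 27.7% rose. The median log2 change of the 4 genes was 3.22 in control cells, 2.55 in 7-day cells and 3.23 in 14-day cells. The median of all genes tested was 0.0020, -0.015 and 0.0063. In control and 14-day cells the median of the 4 includes Lcn2, which the day 3 libraries of these groups chose, so it is a description. Of the 3 genes tested there, the middle change was that of Cxcl1, 2.82 in control and 3.12 in 14-day cells.

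Il6, the cytokine, rose 12.4-fold in control cells (log2 change 3.63, SE 0.08, adjusted p = 4.56e-31), 8.93-fold in 7-day cells (3.16, SE 0.07, adjusted p = 1.01e-29) and 10.2-fold in 14-day cells (3.34, SE 0.07, adjusted p = 2.41e-30). Its log2 change was above that of 98.6% to 98.8% of all genes tested in each treatment. The neutrophil chemokine Cxcl1 rose 7.06-fold in control cells (2.82, SE 0.12, adjusted p = 6.3e-22), 3.85-fold in 7-day cells (1.95, SE 0.10, adjusted p = 2.23e-19) and 8.68-fold in 14-day cells (3.12, SE 0.11, adjusted p = 1.21e-23). Ccl2, the monocyte chemokine, rose much less: 1.41-fold in control cells (0.49, SE 0.05, adjusted p = 3.44e-10), 1.36-fold in 7-day cells (0.45, SE 0.05, adjusted p = 3.09e-09) and 1.37-fold in 14-day cells (0.46, SE 0.05, adjusted p = 1.79e-09). Lcn2 rose 33.0-fold in 7-day cells (5.04, SE 0.12, adjusted p = 1.04e-28). As a description, the fitted ratio of its day 3 to its day 0 level was 13.8 in control cells and 83.8 in 14-day cells (log2 3.78, SE 0.18, and 6.39, SE 0.13).

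**Figure D2:**
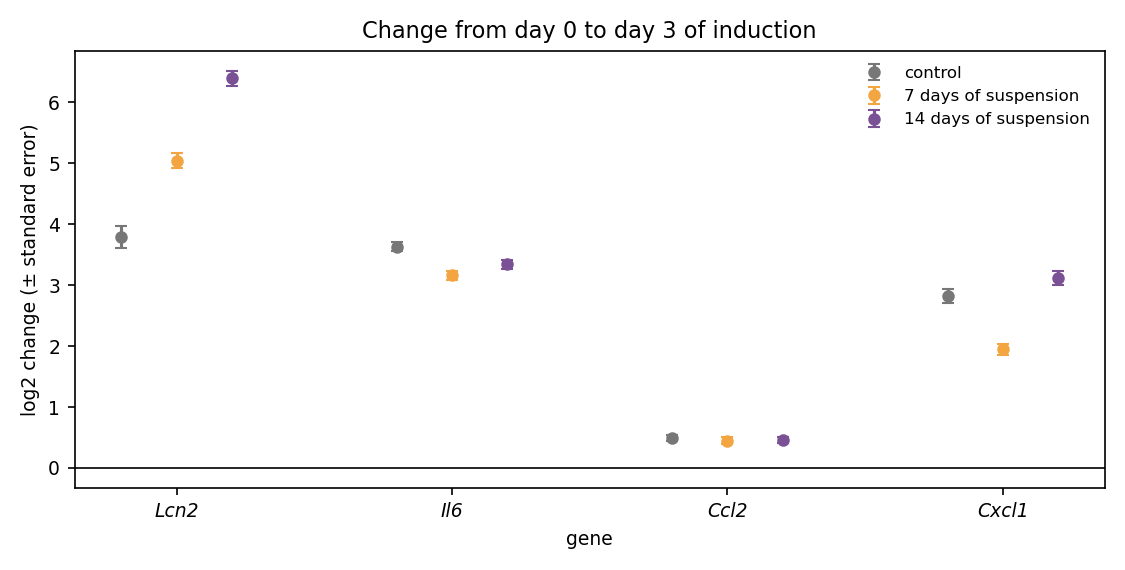
Fitted log2 change from day 0 to day 3 for each gene, with bars of 1 standard error, in control (grey), 7-day (orange) and 14-day cells (purple), from 2 libraries per group and day. The change of Lcn2 goes from 3.78 in control to 6.39 in 14-day cells, those of Il6 and Cxcl1 are lowest in 7-day cells (3.16 and 1.95), and those of Ccl2 lie between 0.45 and 0.49.

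Whether the change over induction differed between treatments was tested by the difference of the changes (an interaction in the same edgeR fit). After 7 days of suspension 2 of the 3 members tested had a smaller rise than control cells, against 5.68% of all genes with a more negative change. The rise of Cxcl1 was smaller by 0.88 on the log2 scale (log2 difference -0.88, SE 0.15, adjusted p = 8.12e-05) and that of Il6 by less (log2 difference -0.47, SE 0.10, adjusted p = 0.00166). In both genes the 7-day cells started from a higher level at day 0 and still ended above control at day 3. For Ccl2 the log2 difference was -0.05, with a 95% interval of -0.19 to 0.10 (adjusted p = 0.796).
After 14 days none of the 3 members tested passed the edgeR threshold, against 21.9% of all genes in either direction. At an unadjusted p under 0.05 it was 1 of them, and DESeq2 also called 1, in each case Il6. The log2 difference of Il6 was -0.28 (SE 0.11, 95% interval -0.50 to -0.07, adjusted p = 0.0505, with 0.0132 to 0.336 over the alternative settings). That of Cxcl1 was 0.30 (interval -0.05 to 0.64, adjusted p = 0.232), but it rests on the 2 libraries of 14-day cells at day 0: without replicate 1 of them it was 0.057 (adjusted p = 0.878) and without replicate 2 it was 0.61 (adjusted p = 0.0215). That of Ccl2 was -0.04 (interval -0.19 to 0.11, adjusted p = 0.786). The corresponding values of Lcn2, a description, were 1.26 (SE 0.30) for 7-day and 2.61 (SE 0.32) for 14-day cells, both toward a larger rise than in control cells. Without replicate 1 of the control cells at day 0 the 7-day value was 0.76, and without replicate 2 it was 1.61.

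Before induction, cells of rats suspended for 7 days had more RNA of all 4 genes than control cells. At day 0, 4 of 4 members were higher, where 11.7% of all genes tested were. Cxcl1 was 3.47-fold higher (log2 difference 1.79, SE 0.12, adjusted p = 3e-14) and Lcn2 2.94-fold higher (1.56, SE 0.25, adjusted p = 7.71e-06). Il6 was 1.62-fold higher (0.70, SE 0.08, adjusted p = 3.41e-08) and Ccl2 1.20-fold higher (0.26, SE 0.05, adjusted p = 0.000272). The differences of Cxcl1 and Lcn2 were above those of 97.9% and 97.5% of all genes, that of Il6 above 93.3% and that of Ccl2 above 80.5%.

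After 14 days of suspension the day 0 levels lay close to control except for Lcn2. The test called 1 of 4 members higher, against 7.85% of all genes. This was Lcn2, 1.70-fold higher (log2 difference 0.76, SE 0.27, adjusted p = 0.0481), with adjusted p from 0.0146 to 0.48 over the alternative settings. Without replicate 2 of control cells at day 0, the library with 16 counts, its log2 difference was 0.41 (adjusted p = 0.48), and without replicate 1 of that group it was 1.26. The call was also lost without replicate 1 or replicate 2 of the 14-day cells at day 0 (adjusted p = 0.0886 and 0.231). The log2 difference from control was 0.13 for Il6 (95% interval -0.05 to 0.30), 0.015 for Ccl2 (-0.09 to 0.12) and -0.08 for Cxcl1 (-0.37 to 0.22). The intervals do not reach the differences found for these 3 genes after 7 days. Without replicate 1 of the 14-day cells at day 0 that of Cxcl1 was 0.17, and without replicate 2 of them it was -0.38.

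The direct comparison of both suspension periods at day 0 used no control library, but the same 2 libraries of 7-day cells as the comparison with control. The 2 results are therefore not independent of each other. In the direct comparison 4 of 4 members were lower after 14 than after 7 days, against 6.26% of all genes. Cxcl1 was 3.65-fold lower (log2 difference -1.87, SE 0.12, adjusted p = 1.52e-14), Lcn2 1.73-fold lower (-0.79, SE 0.22, adjusted p = 0.0115), Il6 1.48-fold lower (-0.57, SE 0.08, adjusted p = 2.67e-06) and Ccl2 1.18-fold lower (-0.24, SE 0.05, adjusted p = 0.00114). The call of Lcn2 was lost without replicate 1 of the 7-day cells (adjusted p = 0.189) or replicate 1 of the 14-day cells (adjusted p = 0.0978), and on halved counts (adjusted p = 0.0626).

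**Figure D3:**
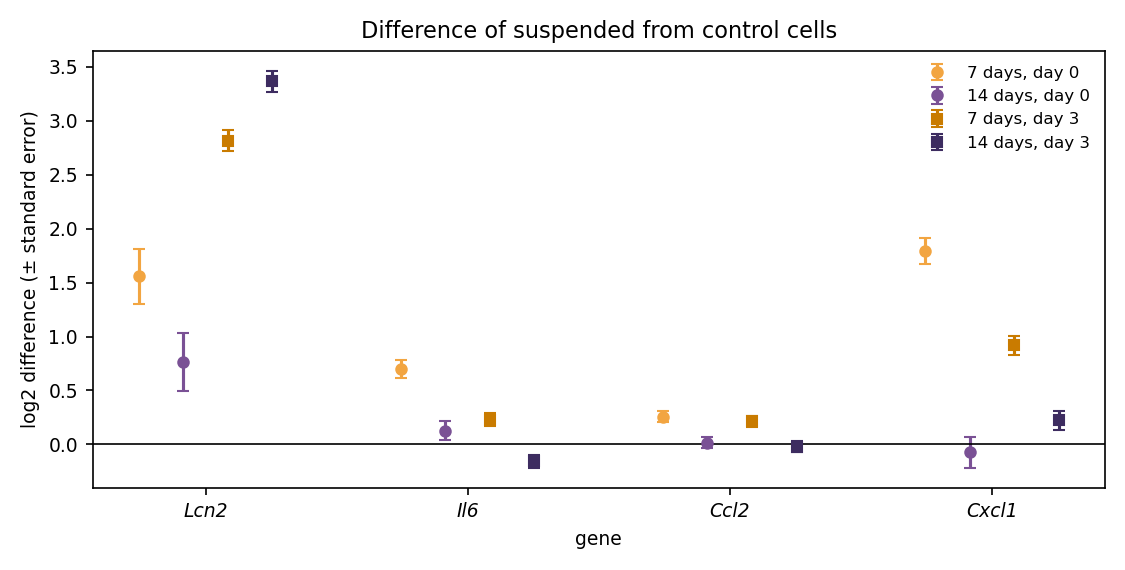
Fitted log2 difference of 7-day (orange) and 14-day cells (purple) from control cells at day 0 (circles) and day 3 (squares), with bars of 1 standard error and 2 libraries per group. The control libraries of a day are shared by both of its differences. The 7-day values lie above 0 for every gene at either day, the 14-day values of Il6, Ccl2 and Cxcl1 lie between -0.16 and 0.22, and Lcn2 is the one gene with its highest value in 14-day cells.

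At day 3 the 7-day cells were again above control in the 3 members tested, against 6.75% of all genes. Cxcl1 was 1.89-fold higher (log2 difference 0.92, SE 0.09, adjusted p = 2.57e-10), Il6 1.17-fold (0.23, SE 0.06, adjusted p = 0.00817) and Ccl2 1.16-fold (0.21, SE 0.05, adjusted p = 0.00305). The calls of Il6 and Ccl2 were lost without replicate 1 of the 7-day cells at day 3 (adjusted p = 0.201 and 0.091). That of Il6 was also lost without replicate 1 of the control cells at day 3 (adjusted p = 0.116) and that of Ccl2 without replicate 2 of them (adjusted p = 0.0712). Lcn2 stood 7.04-fold above control in the 7-day libraries (log2 difference 2.82, SE 0.10), given as a description since the control libraries of day 3 chose it.

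In 14-day cells at day 3 the 3 members tested lay close to control, and DESeq2 called 0 of them. Of the 3 members tested, 1 was lower than control, where 15.3% of all genes were lower and 16% higher. Il6 was 1.12-fold lower (log2 difference -0.16, SE 0.06, adjusted p = 0.0496). This call was lost under DESeq2 (adjusted p = 0.0512) and without any 1 of the 4 libraries compared (adjusted p = 0.101 to 0.327), though the direction held. Cxcl1 had a log2 difference of 0.22 (95% interval 0.04 to 0.41, adjusted p = 0.0621, with 0.0184 to 0.362 over the alternative settings), and its groups did not overlap. Ccl2 had one of -0.022 (interval -0.13 to 0.08, adjusted p = 0.791). The value that chose Lcn2 was its log2 difference of 3.37 (SE 0.10), a 10.3-fold higher level, above that of 99.7% of all genes. Groups that do not overlap were common in this comparison, with 65.9% of all genes in either direction.

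Between both suspension periods at day 3, the 3 members tested were lower after 14 days, against 11% of all genes. Cxcl1 was 1.62-fold lower (log2 difference -0.70, SE 0.09, adjusted p = 1.34e-07), Il6 1.31-fold (-0.38, SE 0.06, adjusted p = 9.87e-06) and Ccl2 1.18-fold (-0.23, SE 0.05, adjusted p = 0.000833). The call of Ccl2 was lost without replicate 1 of the 7-day cells (adjusted p = 0.0518) or replicate 1 of the 14-day cells (adjusted p = 0.0569). Lcn2 went the other way, at 1.47-fold the level of 7-day cells (0.55, SE 0.08, a description).

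The genes with the most similar pattern were sought by the Pearson correlation of log2 CPM over the 12 libraries, among 10474 others with at least 5 CPM in their highest group. These correlations share the libraries and the step from day 0 to day 3, and are descriptions. Ccl2 and Cxcl1 were each the second nearest gene to the other (r = 0.98), with r = 0.96 within the 6 libraries of day 0 and 0.88 within those of day 3. Cxcl1 varied far more than Ccl2, but both were highest in 7-day cells at either day. Lcn2 had its nearest pattern in ENSRNOG00000008140 (r = 0.99), which went from 400.4 CPM in control cells at day 0 to 695 CPM in 14-day cells at day 3. Il6 had it in ENSRNOG00000000902 (r = 0.999), at 199.8 CPM in control cells at day 0 and 705 CPM in 7-day cells at day 3. No symbol could be matched to either identifier. Neither nearest gene stood apart: the genes at ranks 2 and 3 had r of 0.991 and 0.987 with Lcn2, and both had 0.996 with Il6. Within the libraries of day 0 and of day 3, r of Lcn2 with its nearest gene was 0.87 and 0.97. For Il6 with its nearest gene it was 0.998 and 0.84. Among the members, Lcn2 was the least like the others, with r from 0.89 to 0.92. Il6 stood at rank 467, Cxcl1 at rank 584 and Ccl2 at rank 749 among the genes nearest to Lcn2. Such ranks do not set Lcn2 apart. Among the genes nearest to Il6, Ccl2 stood at rank 476, Cxcl1 at rank 526 and Lcn2 at rank 820.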

How the data were processed

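The authors deposited raw counts per Ensembl rat gene identifier for 12 libraries. Per the submitters' processing notes, the tools were FastQC 0.11.9, STAR 2.7, featureCounts 1.6.4 and DESeq2 and the build Rnor_6.0. The sources used here give neither the tools' roles nor a strand setting or annotation release. Libraries were stranded mRNA (TruSeq), read at 51 bp, per the labels. From the counts, edgeR 4.0.16 (R 4.3.3) fitted 6 group means to all 12 libraries (filterByExpr, TMM, glmQLFit, glmQLFTest, two-sided, 6 residual degrees of freedom), with 9 comparisons and 2 interactions, and was tested on simulated data. Tests and intervals used more degrees of freedom than these 6, since edgeR adds information on the spread that is shared over all genes. Replicates of a group differed by more than counting noise: chi-square over degrees of freedom of halved counts was 1.36 (control, day 3) to 3.84 (7-day cells, day 0). Log2 CPM used a prior count of 2. Total counts of 15105521 to 21484885 limit low genes most. Alternatives were DESeq2 1.42.0, total-count scaling, other filters (none, or 1 CPM in 4 libraries), halved counts, fewer libraries in the fit, a replicate block and leaving out each library. The members and lists were chosen with earlier results of these data known. Named genes are the members and, by correlation, the nearest genes. The rule allowed 2 identifiers for each member, of which 2 in all are printed. 13 pathway lists and the marker lists, written as symbols, were not used, since no identifier matched.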

Additional observations from a re-analysis of the deposited data

Results flagged for a closer look

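Tested as an interaction in edgeR, the day 0 to day 3 rise of 2 genes differed between the 7-day cells and the controls. For Cxcl1 the log2 difference of the changes was -0.88 (adjusted p = 8.12e-05): the rise was 3.85-fold in 7-day and 7.06-fold in control cells. For Il6 it was -0.47 (adjusted p = 0.00166), with rises of 8.93-fold and 12.4-fold. In both genes the 7-day libraries of day 0 lay above all control libraries of day 0. The share of all genes without overlap in that comparison is not given here. With 2 libraries per group, single libraries could not be tested as outliers.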

How the results depend on the processing

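Each of 44 values of the 4 genes was recomputed under 19 settings, and 832 of the 836 alternative values kept the direction. The other 4 belong to differences that had not passed the test. Ccl2 in 14-day against control cells at day 0 became -0.021 with total-count scaling. Leaving out 1 library gave -0.043 to 0.012 for Ccl2 in 14-day against control cells at day 3, -0.11 to 0.013 for Ccl2 in the 7-day interaction and -0.38 to 0.17 for Cxcl1 in 14-day against control cells at day 0. The call of Lcn2 in 14-day against control cells at day 0 was lost with total-count scaling (0.73, adjusted p = 0.0621) and halved counts (0.77, adjusted p = 0.139). It was also lost with the libraries of that day alone (0.76, adjusted p = 0.189) and in 5 of the fits without 1 library. Over all fits without 1 library, whether or not the call was lost, this difference was 0.41 to 1.26. In 14-day against 7-day cells at day 0 it was lost with halved counts (-0.78, adjusted p = 0.0626), the libraries of that day alone (-0.80, adjusted p = 0.134) and in 2 fits without 1 library (-0.95 to -0.60). The call of Il6 in 14-day against control cells at day 3 was lost with DESeq2 (-0.16, adjusted p = 0.0512), without a filter (-0.15, adjusted p = 0.0607) and in 9 fits without 1 library (-0.18 to -0.12). Leaving out 1 library gave 0.15 to 0.29 for Il6 and 0.16 to 0.25 for Ccl2 in 7-day against control cells at day 3, and -0.27 to -0.17 for Ccl2 in 14-day against 7-day cells at day 3, each with 2 losses of the call. Cxcl1 in 14-day against control cells at day 3 passed the threshold with halved counts (0.22, adjusted p = 0.0375), with the libraries of that day alone (0.21, adjusted p = 0.0184) and in 4 fits without 1 library (0.16 to 0.29). The 14-day interaction of Il6 passed with DESeq2 (-0.30, adjusted p = 0.0476), total-count scaling (-0.35, adjusted p = 0.0132), no filter (-0.29, adjusted p = 0.0427), the libraries compared alone (-0.28, adjusted p = 0.0184) and in 5 fits without 1 library (-0.39 to -0.18), and that of Cxcl1 in 1 such fit (0.057 to 0.61). Lcn2 in 14-day against 7-day cells at day 3 moved to 0.44 with total-count scaling, and its 7-day interaction to 0.76 without replicate 1 and 1.61 without replicate 2 of the control cells at day 0. The causes of these changes were not tested.

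Deviations of same-numbered replicates correlated at -0.05 to 0.04 over 15 pairs of groups, mostly across treatments, so pairing is undecided. With the replicate number as a block, the calls of Lcn2 in 14-day against control cells at day 0 (0.77, adjusted p = 0.0535) and of Il6 in 14-day against control cells at day 3 (-0.16, adjusted p = 0.0601) were lost, and no other call of these genes changed. Of all genes, 1550 passed in 14-day against 7-day cells at day 0 and 862 to 1695 without 1 library, with 862 and 887 without replicates 1 and 2 of the 14-day cells. At day 3 it was 2988 and 1700 to 3351, with 1848 without replicate 1 of the 7-day and 1700 without replicate 1 of the 14-day cells. Total-count scaling moved the median gene by -0.10 (14-day against control) and -0.11 (14-day against 7-day) at day 3. It changed the share of higher genes among those called from 50.8% to 62.8% in 7-day against control and from 46.6% to 20.6% in 14-day against 7-day cells at day 0. At day 3 it changed from 51.2% to 30.2% in 14-day against control and from 51.2% to 22.1% in 14-day against 7-day cells, and in the 14-day interaction from 50.2% to 36.9%. Low counts of Lcn2 at day 0, 16 to 68 per library, limit each of its comparisons that use that day.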
